A study of Mus musculus with 8 samples.

Results

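The genes described here are the signalling protein kinases and phosphatases with their regulatory subunits. They were taken by symbol: Ppp followed by a digit, Prka, Prkc, Prkg, Camk except Camk2a, Mapk followed by a digit, Map2k, Map3k and Map4k. Of 8653 genes named on the array, 90 carry such a symbol, and 137 of 12131 named spots measure them. Of these 90, 38 belong to phosphatase families and 51 to kinase families. The families hold regulatory, scaffold and inhibitor genes as well as enzymes. The remaining gene, Prkcsh, encodes the beta subunit of glucosidase II and is set aside, because it shares only its symbol with the protein kinase C genes. A further 5 genes with such symbols lie beyond spot 20000 of the annotation, where spot names could not be placed, and are not analysed here.

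The study profiled whole brain of 4 male ADAR2 mutant mice aged 19 weeks, with the genotype ADAR-/-/GluR-BR/R, against pooled brain RNA of age-matched wildtype males. ADAR2 is the enzyme that edits adenosine in the transcript of the glutamate receptor subunit GluR-B, and in these mice the GluR-B alleles carry the edited (R) codon. The study's design text counts 4 wildtype mice in the pool, whereas the labelling protocol gives a larger number. Each mutant was hybridised on 2 spotted cDNA arrays, once labelled with Cy5 and once with Cy3, which makes 8 arrays. The pool was the only wildtype sample, so the tests below leave out the spread among wildtype mice. The labels used here name no strain.

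Protein kinases add phosphate to other proteins and protein phosphatases remove it. Protein kinase A (PKA) is held inactive by regulatory subunits until cyclic AMP binds them, calcium with calmodulin activates the CaM kinases and the phosphatase calcineurin, and diacylglycerol activates most forms of protein kinase C. Mitogen-activated protein (MAP) kinases stand at the end of cascades in which each kinase phosphorylates the next. The phosphatases PP1 and PP2A consist of a few catalytic subunits that many regulatory subunits direct to particular substrates. At synapses these enzymes set the phosphorylation of glutamate receptors and of the transcription factor CREB, which binds cAMP response elements in promoters.

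The deposited values are log2 ratios of the dyes, and neither the values nor the labels say which channel is the numerator. Signs are therefore given as deposited, and no gene is called higher or lower in the mutants. The mean ratio of a gene is the average over a mouse's 2 arrays and then over 4 mice. It compares mutant with pool if every ratio was written the same way round. The swap component is the difference between a mouse's arrays, Cy5-labelled mutant minus Cy3-labelled mutant, divided by 2. It compares mutant over pool if the ratios are Cy5 over Cy3, and the mean ratio then carries the dye difference. Adarb1, which encodes ADAR2, had swap components of -1.23 ± 0.16 (SE, n = 4 mice, limma adjusted p = 0.0297) and -1.33 ± 0.26 (adjusted p = 0.0353) at 2 of its probes and -0.10 at another. Its mean ratios at the same probes were 0.70 (adjusted p = 0.0274), 0.26 and 0.12. Arrays had 20211 to 20559 values, and their medians, which were subtracted, lay between -0.57 and -0.00 log2. Over the named genes the SD was 0.71 to 0.75 where the mutant was in Cy5 and 0.94 to 1.20 where it was in Cy3. Ratios carry no absolute level, so the labelled tissue could not be checked by how strongly its markers are expressed. In whole brain RNA, fewer cells of a type and less RNA per cell cannot be told apart.

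Promoter windows of 300 bases (250 before to 50 after the start, RefSeq, GRCm38.p6) were found for 73 of the 90 members. Those of 6 members are shown. Eligible were members of any family called in the mean ratio, with the same sign on all 8 arrays and a single listed start. Of these, the members with the highest and lowest mean ratios were taken. Ppp3cb, whose arrays did not share a sign, was added by choice. Capitals mark TGACG or its complement CGTCA, the core of a cAMP response element, and GGGCGG or its complement CCGCCC, a GC box. Ppp2r2c (chr5:36868260-36868559, plus strand), Map2k1 (chr9:64253556-64253855, minus strand), Ppp2ca (chr11:52098574-52098873, plus strand) and Ppp3cb (chr14:20546524-20546823, minus strand) had positive mean ratios. Ppp3r2 (chr4:49681934-49682233, minus strand) and Map2k2 (chr10:81105665-81105964, plus strand) had negative ones.
Ppp2r2c: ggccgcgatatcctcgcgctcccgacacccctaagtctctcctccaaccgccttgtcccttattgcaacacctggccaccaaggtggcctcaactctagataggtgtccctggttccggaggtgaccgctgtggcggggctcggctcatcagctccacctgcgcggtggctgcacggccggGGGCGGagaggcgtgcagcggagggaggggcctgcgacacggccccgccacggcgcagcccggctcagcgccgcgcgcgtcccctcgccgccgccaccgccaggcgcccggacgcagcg
Map2k1: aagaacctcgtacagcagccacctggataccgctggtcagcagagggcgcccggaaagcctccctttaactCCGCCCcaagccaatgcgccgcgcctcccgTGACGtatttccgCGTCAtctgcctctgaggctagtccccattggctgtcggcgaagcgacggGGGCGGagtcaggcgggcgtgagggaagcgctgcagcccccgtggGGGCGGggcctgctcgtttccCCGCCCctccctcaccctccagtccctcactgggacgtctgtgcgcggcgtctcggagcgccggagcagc
Ppp2ca: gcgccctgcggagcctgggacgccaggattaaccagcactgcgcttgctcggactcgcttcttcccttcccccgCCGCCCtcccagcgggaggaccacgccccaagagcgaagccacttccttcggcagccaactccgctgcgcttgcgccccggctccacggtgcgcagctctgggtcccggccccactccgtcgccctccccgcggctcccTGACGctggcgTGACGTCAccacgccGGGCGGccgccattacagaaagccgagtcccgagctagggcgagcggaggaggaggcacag
Ppp3cb: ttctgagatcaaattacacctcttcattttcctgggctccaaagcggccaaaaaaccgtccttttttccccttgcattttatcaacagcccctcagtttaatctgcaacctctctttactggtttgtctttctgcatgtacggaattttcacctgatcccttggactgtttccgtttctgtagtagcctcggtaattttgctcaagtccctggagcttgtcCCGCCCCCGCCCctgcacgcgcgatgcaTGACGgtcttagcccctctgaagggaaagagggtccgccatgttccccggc
Ppp3r2: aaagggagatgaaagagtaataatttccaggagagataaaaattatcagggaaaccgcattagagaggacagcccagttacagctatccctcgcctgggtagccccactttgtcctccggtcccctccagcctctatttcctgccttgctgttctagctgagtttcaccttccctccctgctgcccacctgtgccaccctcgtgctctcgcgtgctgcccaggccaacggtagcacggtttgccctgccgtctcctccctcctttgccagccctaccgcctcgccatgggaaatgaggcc
Map2k2: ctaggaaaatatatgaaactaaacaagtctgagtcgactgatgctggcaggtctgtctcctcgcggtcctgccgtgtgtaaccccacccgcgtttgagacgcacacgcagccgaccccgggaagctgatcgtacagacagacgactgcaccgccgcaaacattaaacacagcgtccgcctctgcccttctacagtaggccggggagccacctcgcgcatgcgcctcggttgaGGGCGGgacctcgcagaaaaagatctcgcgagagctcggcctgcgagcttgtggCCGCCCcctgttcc

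Among these windows Ppp2ca holds 3 copies of the TGACG core, 2 of which overlap as the full element TGACGTCA, and Map2k1 holds 2. The Ppp3cb window holds 1 and the other windows hold none. Searched on both strands, TGACG was present in 32 of 73 member windows (43.8%), against 30.7% of the 6974 windows of all measured genes. It was in 11 of 19 windows of members with a positive call in the mean ratio (57.9%), in 2 of 7 with a negative call (28.6%) and in 40.4% of the rest. The full TGACGTCA was in 5.48% of member windows and 3.01% of all. GC boxes were in 71.2% of member windows and 61.2% of all, and TATAAA in 4.11% and 8.07%. These are matches of letters and not evidence of binding.

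Of the 90 members, 32 passed the test in the mean ratio (limma, Benjamini-Hochberg adjusted p under 0.05 over 8605 genes), 22 with a positive and 10 with a negative value. Across all genes tested 29.1% passed, 17.5% with a positive and 11.6% with a negative value, so members were called positive somewhat more often (24.4%) and negative about as often (11.1%). The median mean ratio of the members was 0.16 log2, against -0.02 over all genes. On all 8 arrays 13 of the 90 members were positive and 7 negative, where 19.3% of all genes had the same sign on all 8. With the deposited array medians left in, 17 members were positive and 13 negative, and 28.8% of all genes were called. All 22 positive members averaged above 0 in both dye orientations, and all 10 negative ones below 0. Calling on the average of both orientations favours such members. Leaving out mouse 1, 2, 3 or 4 left 22, 19, 15 or 18 calls, while the share of all genes called was 20.4, 13.8, 14.2 or 16.4%. Called under each of these were 13 members, and the other 19 lost the call without at least 1 mouse. The 13 are Prkar1b, Ppp2r2c, Ppp3cb, Camk2b, Prkar1a, Map2k1, Ppp1r1b, Ppp2cb, Ppp1cc, Mapk6, Camkv, Mapk8 and, as the only negative member, Ppp1r9a. Centring runs of 48 neighbouring spots left 26 calls, with 22.7% of all genes called. It reduced the mean ratio over 1.5 times in Prkar1b (0.83), Ppp2r2c (0.75), Ppp1r1b (0.48) and Ppp1r9a (-0.69), which kept their calls, and in others named with their families.

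**Figure D1:**
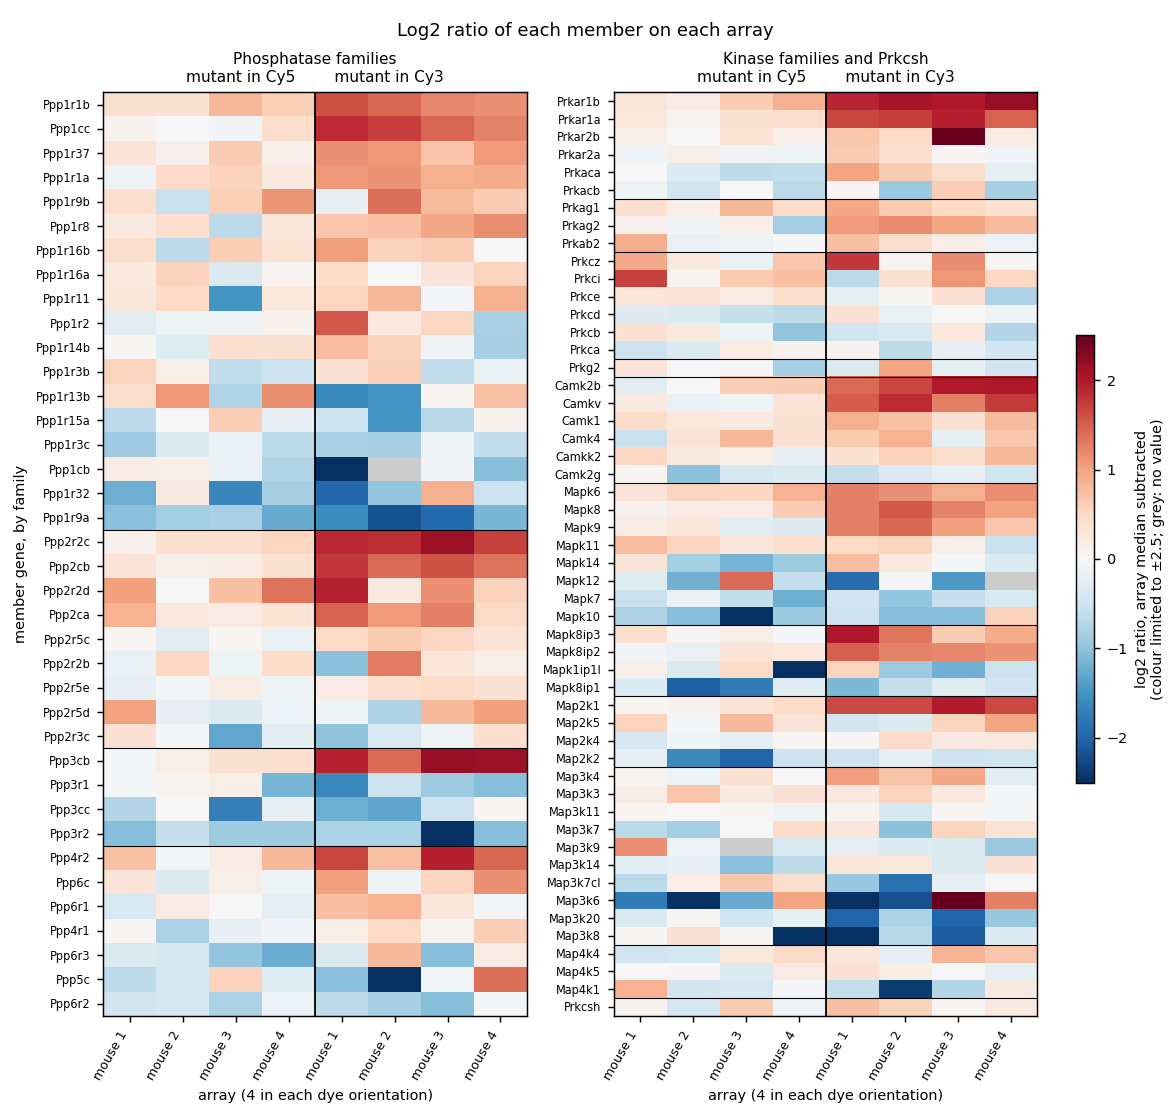
Log2 ratio of each member (rows, grouped by family, phosphatases left and kinases right) on each of the 8 arrays (columns), after the array's median was subtracted; colour is limited at the ends of the scale and grey marks no value. The strongest positive rows, such as Prkar1b and Ppp2r2c, are paler on the 4 left columns, the mutant in Cy5, than on the 4 right ones, the mutant in Cy3, and Ppp1r9a is negative on all 8.

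PP1 has a small set of catalytic subunits. Ppp1cc, the gamma subunit, had log2 ratios of 0.10, -0.02, -0.06 and 0.45 in mice 1 to 4 with the mutant in Cy5, and of 1.87, 1.72, 1.46 and 1.24 with the mutant in Cy3. Values near 0 in the first orientation thus stood beside values above 1 in the other, without overlap. Its mean ratio was 0.84 ± 0.12 (SE, n = 4 mice, adjusted p = 0.00824). Ppp1cb, the beta subunit, had 0.19, 0.16, -0.17 and -0.76 with the mutant in Cy5, and -3.58, -0.08 and -1.06 in mice 1, 3 and 4 with the mutant in Cy3. The array of mouse 1 stood far below the others, and the mean ratio of -0.64 ± 0.32 did not pass (adjusted p = 0.179). For mouse 2 that value rests on 1 array. Ppp1ca is not analysed here.

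The proteins that direct or inhibit PP1 went both ways. Ppp1r1b encodes DARPP-32, which becomes a PP1 inhibitor when PKA phosphorylates it in striatal neurons. It had 0.38, 0.36, 0.84 and 0.60 with the mutant in Cy5, and 1.58, 1.44, 1.20 and 1.13 with the mutant in Cy3. All 8 arrays were positive, and the mean ratio was 0.94 ± 0.12 (SE, n = 4, adjusted p = 0.00755). Ppp1r1a, the related inhibitor-1, was chosen after its values were seen and had a mean ratio of 0.65 ± 0.12 (adjusted p = 0.0154). Ppp1r9a, which encodes the actin-binding PP1 scaffold neurabin of dendritic spines, had the most negative mean ratio of all called members. It had -1.05, -0.87, -0.81 and -1.26 with the mutant in Cy5, and -1.56, -2.17, -1.93 and -1.14 with the mutant in Cy3. The mean ratio was -1.35 ± 0.12 (adjusted p = 0.00755), and no array was above -0.81. Ppp1r37, another PP1 regulatory subunit, averaged 0.30 ± 0.24 and 1.005 ± 0.19 (SD, n = 4 arrays each) with the mutant in Cy5 and in Cy3. Ppp1r3c, which targets PP1 to glycogen, averaged -0.53 ± 0.34 and -0.60 ± 0.32 in the same orientations. Both passed in the mean ratio, at 0.65 ± 0.12 (adjusted p = 0.0127) and -0.56 ± 0.16 (adjusted p = 0.0439). Ppp1r37 lost its call without mouse 2 or 3 (0.67 and 0.64), and Ppp1r3c without mouse 1, 2 or 4 (-0.46, -0.55 and -0.53). Of the 18 PP1 members, 4 were positive and 2 negative, with a median of 0.18.

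With probes averaged, PP2A members were called in the positive direction or not at all, 4 of 9, with a median mean ratio of 0.21. Among those not called, Ppp2r5d had 1 probe called in each direction, as described further on. Ppp2r2c, a brain form of the B55 regulatory subunit, had 0.12, 0.40, 0.41 and 0.53 with the mutant in Cy5, and 1.89, 1.84, 2.14 and 1.70 with the mutant in Cy3. The orientations lay more than 1 log2 unit apart without overlap, and the mean ratio was 1.13 ± 0.12 (SE, n = 4, adjusted p = 0.00755). On 2 arrays its spot was weak, and without them the mean ratio was 0.72 (adjusted p = 0.0328) and the swap component could not be tested. The catalytic subunit Ppp2cb was measured by 3 probes. Averaged over them it had 0.32, 0.16, 0.19 and 0.38 with the mutant in Cy5, and 1.77, 1.41, 1.59 and 1.36 with the mutant in Cy3. Its mean ratio was 0.90 ± 0.12 (adjusted p = 0.00782), and each of its probes passed alone, at 1.002, 0.79 and 0.90. The other catalytic subunit, Ppp2ca, had 0.86, 0.24, 0.21 and 0.34 with the mutant in Cy5, and 1.48, 1.07, 1.26 and 0.47 with the mutant in Cy3. Here the orientations overlapped, through mouse 1 in Cy5 and mouse 4 in Cy3, and the mean ratio was 0.74 ± 0.16 (adjusted p = 0.0216). It lost its call with runs of 48 spots centred (0.44, adjusted p = 0.172) and without mouse 1, 2 or 3 (0.60, 0.77 and 0.74). These catalytic subunits are close copies in sequence, and how far each transcript binds the spot of the other was not tested.

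Calcineurin, the phosphatase activated by calcium and calmodulin, consists of a catalytic A and a regulatory B subunit, and its 4 members were all called. Ppp3cb, a catalytic subunit expressed in brain, had -0.03, 0.15, 0.37 and 0.40 with the mutant in Cy5, and 1.93, 1.41, 2.17 and 2.16 with the mutant in Cy3. With the mutant in Cy5 its values stayed within 0.40 of 0, while all 4 of the other arrays exceeded 1.4, and the mean ratio was 1.07 ± 0.14 (SE, n = 4, adjusted p = 0.00789). The other catalytic subunit measured, Ppp3cc, is known best from testis. It had -0.72, 0.01, -1.70 and -0.20 with the mutant in Cy5, and -1.23, -1.31, -0.51 and 0.05 with the mutant in Cy3, with a mean ratio of -0.70 ± 0.20 (adjusted p = 0.0476). That call was lost with runs of 48 spots centred (-0.27, adjusted p = 0.344) and without mouse 1, 2 or 3 (-0.61, -0.72 and -0.57). Among the regulatory subunits, Ppp3r1, the form found in brain, had -0.03, 0.07, 0.14 and -1.16 with the mutant in Cy5, and -1.61, -0.54, -0.89 and -1.07 with the mutant in Cy3. Mouse 4 stood apart on the Cy5 side, and the mean ratio of -0.63 ± 0.18 just passed (adjusted p = 0.0498). Centring runs of 48 neighbouring spots moved it to 0.02, and without any 1 of the mice it did not pass (-0.77 to -0.48). The testis form, Ppp3r2, had -1.06, -0.57, -0.90 and -0.88 with the mutant in Cy5, and -0.80, -0.79, -2.87 and -1.07 with the mutant in Cy3. All of its arrays were negative, with mouse 3 in Cy3 far below the rest, and the mean ratio was -1.12 ± 0.22 (adjusted p = 0.0169). Without mouse 4 it was -1.16 (adjusted p = 0.0537). Calcineurin thus had 1 positive and 3 negative members, with a median of -0.67, the lowest of all families with more than 1 member. With runs of 48 spots centred Ppp3cb stayed positive and Ppp3r2 was the only negative call. Ppp3ca is not analysed here.

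The 7 members of PP4, PP5 and PP6, which act in DNA repair, hormone receptor folding and the cell cycle, had a median of 0.03 with 1 call. That call was Ppp4r2, a regulatory subunit of PP4, which had 0.73, -0.04, 0.20 and 0.83 with the mutant in Cy5, and 1.66, 0.74, 1.94 and 1.43 with the mutant in Cy3. Mouse 2 gave the lowest value in each orientation, and the mean ratio was 0.94 ± 0.18 (adjusted p = 0.0162). Without mouse 3 or 4 the call was lost, at 0.89 and 0.87. Neither catalytic subunit measured passed as a gene. Ppp5c ranged from -0.63 to 0.57 with the mutant in Cy5 and from -3.54 to 1.38 with the mutant in Cy3, with a mean ratio of -0.50 ± 0.43 (adjusted p = 0.407). Ppp6c had a mean ratio of 0.32 ± 0.18 (adjusted p = 0.228). Of its 2 probes 1 passed alone, at 0.71 (adjusted p = 0.0138), and the other, weak on 3 arrays, was at -0.09. Ppp4c is not analysed here.

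**Figure D2:**
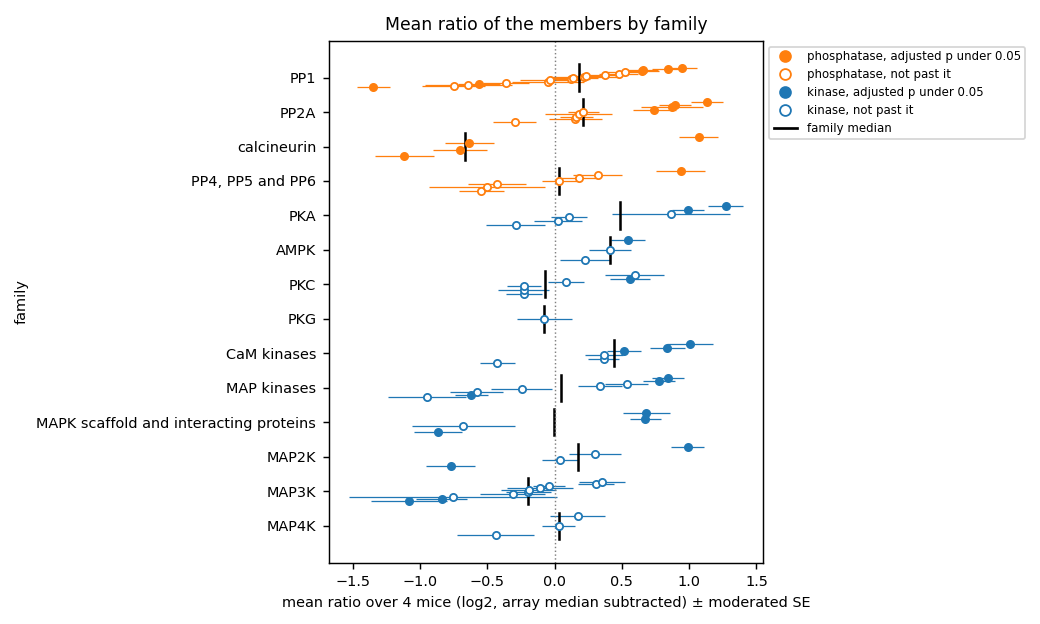
Mean ratio of each member (log2, x axis, points with moderated SE over 4 mice) by family (y axis), with filled points for an adjusted p under 0.05, orange for phosphatases and blue for kinases, and a black bar at the family median. PKA and the CaM kinases have medians of 0.48 and 0.44, calcineurin -0.67 and the MAP3Ks -0.20.

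Within PKA 2 regulatory subunits were called and neither catalytic subunit was, a difference that was not itself tested. Prkar1b, a regulatory subunit enriched in neurons, had the highest mean ratio of all members. It had 0.30, 0.21, 0.64 and 0.88 with the mutant in Cy5, and 1.91, 2.06, 2.00 and 2.17 with the mutant in Cy3. The Cy3 values varied little (SD 0.11) and all lay above those in Cy5, and the mean ratio was 1.27 ± 0.13 (SE, n = 4, adjusted p = 0.00755). Its ubiquitous counterpart Prkar1a, measured by 2 probes, had 0.26, 0.07, 0.38 and 0.42 with the mutant in Cy5, and 1.66, 1.72, 1.95 and 1.47 with the mutant in Cy3. The pattern resembled that of Prkar1b, with no overlap and a mean ratio of 0.99 ± 0.12 (adjusted p = 0.00755). Prkar2b, chosen after its values were seen, had 0.14, 0.01, 0.35 and 0.12 with the mutant in Cy5, and 0.68, 0.49, 4.92 and 0.21 with the mutant in Cy3. A single array, mouse 3 in Cy3, stood far above the other 7, and the mean ratio of 0.86 ± 0.44 did not pass (adjusted p = 0.186).

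The PKA catalytic subunit Prkaca had -0.02, -0.34, -0.64 and -0.61 with the mutant in Cy5, and 0.98, 0.64, 0.44 and -0.25 with the mutant in Cy3. Opposite signs in 3 of 4 mice gave a mean ratio of 0.03 ± 0.18 (adjusted p = 0.925). With runs of 48 spots centred it was 0.50 and passed (adjusted p = 0.0451). The other, Prkacb, had a mean ratio of -0.29 ± 0.22 (adjusted p = 0.344), but that average hides 2 probes of opposite sign, described further on. Of 6 PKA members 2 were called, both positive. Of the AMP-activated kinase, the cell's energy sensor, 1 of 3 members was called. This was the gamma subunit Prkag1, with 0.40, 0.16, 0.82 and 0.47 with the mutant in Cy5, and 0.97, 0.65, 0.50 and 0.37 with the mutant in Cy3. The orientations overlapped, and the mean ratio was 0.54 ± 0.12 (adjusted p = 0.0257), with an adjusted p between 0.0616 and 0.0905 when any of the 4 mice was left out and a value of 0.14 (adjusted p = 0.394) with runs of 48 spots centred.

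With probes averaged, protein kinase C had 1 positive call among 6 members and a median of -0.07. The called gene was the atypical isoform Prkci, chosen after its values were seen, at 0.56 ± 0.15 (adjusted p = 0.0384). The arrays of mouse 1 were opposed there, at 1.71 with the mutant in Cy5 and -0.66 with the mutant in Cy3. The other atypical isoform, Prkcz, which neurons also express as the shortened PKM zeta, had the highest mean ratio of the family, 0.60 ± 0.22, and did not pass (adjusted p = 0.0913). Prkca, chosen after its values were seen, averaged -0.23 over 4 probes (adjusted p = 0.237). Of these 1 passed alone, at -1.45 ± 0.13 (adjusted p = 0.00848), and the others were at 0.17, 0.02 and 0.33. The 2 probes of Prkcb were called in opposite directions, as described further on. Prkg2, a kinase activated by cyclic GMP, had a mean ratio of -0.08 ± 0.20 (adjusted p = 0.793). Prkcsh, the glucosidase subunit set aside, was at 0.22 ± 0.13 (adjusted p = 0.246).

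Among the CaM kinases 3 of 6 members were called, all positive, with a median of 0.44. Camk2b encodes the beta subunit of CaM kinase II, which binds actin in dendritic spines. It had -0.28, 0.01, 0.61 and 0.63 with the mutant in Cy5, and 1.42, 1.67, 1.98 and 1.99 with the mutant in Cy3. In each orientation mice 3 and 4 lay above mice 1 and 2, and the mean ratio was 1.004 ± 0.17 (SE, n = 4, adjusted p = 0.0121). With runs of 48 spots centred it was 0.60 and missed the threshold (adjusted p = 0.051). The alpha subunit gene Camk2a, left out by the naming rule, stood at 1.03 ± 0.14 (adjusted p = 0.00806). Camkv, a kinase-like protein without activity that binds calmodulin, and Camk1 were chosen after their values were seen. Their mean ratios were 0.84 ± 0.13 (adjusted p = 0.00989) and 0.51 ± 0.13 (adjusted p = 0.0302).

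The MAP kinases split by gene, with 2 positive and 1 negative call among 8. Mapk8 encodes the stress kinase JNK1. It had 0.10, 0.21, 0.20 and 0.63 with the mutant in Cy5, and 1.27, 1.54, 1.24 and 1.01 with the mutant in Cy3, with a mean ratio of 0.77 ± 0.12 (SE, n = 4, adjusted p = 0.00922). Mapk10 encodes JNK3, the form largely confined to neurons. It had -0.77, -1.07, -2.75 and -0.93 with the mutant in Cy5, and -0.52, -1.06, -1.07 and 0.58 with the mutant in Cy3. All but mouse 4 in Cy3 were negative, and the mean ratio of -0.95 ± 0.29 missed the threshold (adjusted p = 0.0563). It was -0.45 with runs of 48 spots centred and -0.63 without mouse 3, and it passed on the arrays as deposited, at -1.11 (adjusted p = 0.0374). Mapk9, which encodes JNK2 and was chosen after its values were seen, missed it too, at 0.54 ± 0.16 (adjusted p = 0.0531). Mapk6 encodes the atypical kinase ERK3 and Mapk7 encodes ERK5, a kinase of growth factor signalling. Mapk6 had 0.33, 0.56, 0.52 and 0.87 with the mutant in Cy5, and 1.25, 1.15, 0.89 and 1.17 with the mutant in Cy3. Every array was positive, and the mean ratio was 0.84 ± 0.12 (adjusted p = 0.00858). Mapk7 had -0.55, -0.17, -0.61 and -1.22 with the mutant in Cy5, and -0.48, -0.97, -0.57 and -0.39 with the mutant in Cy3. Every array was negative, and the mean ratio was -0.62 ± 0.12 (adjusted p = 0.0166). Without mouse 2, 3 or 4 it did not pass, at -0.64, -0.63 and -0.56.

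JNK scaffold proteins bring the kinases of the JNK cascade together on moving vesicles. Mapk8ip1, which encodes JIP1, had -0.34, -2.05, -1.75 and -0.31 with the mutant in Cy5, and -1.11, -0.58, -0.31 and -0.49 with the mutant in Cy3. All arrays were negative, mice 2 and 3 in Cy5 the most, and the mean ratio was -0.87 ± 0.18 (SE, n = 4, adjusted p = 0.0196). The call was lost without mouse 2 or 3, at -0.72 and -0.81. Of its 2 probes 1 passed alone, at -0.91 (adjusted p = 0.0275), and the other was at -0.83 (adjusted p = 0.0944). These probes were weak on 2 and 4 arrays, and with weak spots left out the gene could not be tested. Its relatives Mapk8ip2 and Mapk8ip3, chosen after their values were seen, had mean ratios of opposite sign, 0.67 ± 0.12 (adjusted p = 0.0125) and 0.68 ± 0.17 (adjusted p = 0.0352).

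The upstream kinases of the ERK pathway, MEK1 and MEK2, likewise had opposite signs. Map2k1, which encodes MEK1, had 0.04, 0.10, 0.33 and 0.50 with the mutant in Cy5, and 1.64, 1.66, 1.99 and 1.65 with the mutant in Cy3. The mean ratio was 0.99 ± 0.13 (SE, n = 4, adjusted p = 0.0076). Map2k2, which encodes MEK2, had -0.25, -1.61, -1.99 and -0.53 with the mutant in Cy5, and -0.52, -0.25, -0.53 and -0.49 with the mutant in Cy3. Its mean ratio was -0.77 ± 0.18 (adjusted p = 0.028), and it lost its call without mouse 2, 3 or 4, at -0.72, -0.61 and -0.86. With runs of 48 spots centred it was -0.44 (adjusted p = 0.172), and neither of its probes passed alone.

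Further upstream, 2 of 10 MAP3K members were called, both negative, and the family median was -0.20. Map3k8, the kinase Tpl2 of inflammatory signalling, had 0.03, 0.38, 0.02 and -3.50 with the mutant in Cy5, and -2.52, -0.69, -2.05 and -0.32 with the mutant in Cy3. In mice 1, 3 and 4 one array was strongly negative and the other near 0, and the mean ratio was -1.08 ± 0.28 (adjusted p = 0.0379). It lost its call without mouse 1, 3 or 4, at -1.03, -1.10 and -0.80. Map3k6, chosen after its values were seen, differed most between mice, with -1.76, -2.96, -1.25 and 0.99 with the mutant in Cy5, and -3.52, -2.19, 3.36 and 1.27 with the mutant in Cy3. Mice 1 and 2 were negative and mouse 4 positive on both arrays, and the mean ratio of -0.76 ± 0.78 did not pass (adjusted p = 0.489). None of the 3 MAP4K members was called, and Map4k1, a kinase of blood cells, had the largest value there, -0.44 ± 0.29 (adjusted p = 0.285). Map4k4, chosen after its values were seen, had 3 probes, of which 2 passed at 0.64 and 0.96 and the third was at -1.09 (adjusted p = 0.177).

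Phosphatase and kinase families gave similar counts. Of 38 phosphatase members 10 were positive (26.3%) and 5 negative (13.2%), and of 51 kinase members 12 were positive (23.5%) and 5 negative (9.8%). The median mean ratio was 0.17 in the phosphatase and 0.08 in the kinase families. The difference of 0.09 was smaller than its SD of 0.16 over the 4 mice, in which it was 0.10, 0.02, -0.08 and 0.30. With the mutant in Cy5 it was 0.00, -0.01, -0.13 and -0.01, and with the mutant in Cy3 0.05, 0.30, 0.14 and 0.31. Taken probe by probe the difference of the medians was -0.10. No difference between phosphatases and kinases therefore held beyond the spread of the mice.

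Brain-enriched members were 28 genes listed from general knowledge, with earlier results of these data known. Map2k1, Map2k4 and Mapk9 are among them, whereas Mapk8 is counted as ubiquitous. Enrichment in brain was not measured here. The brain-enriched members had a median mean ratio of 0.45, against 0.16 for 43 ubiquitous members, Prkcsh included. Of the brain-enriched members 10 were positive (35.7%) and 3 negative (10.7%), and of the ubiquitous members 11 were positive (25.6%) and 2 negative (4.65%). The difference of the medians was 0.29 over all mice and 0.17, 0.33, 0.16 and 0.14 in mice 1 to 4, with an SD of 0.09. It was positive on each of the 8 arrays. With the mutant in Cy5 it was 0.03, 0.10, 0.12 and 0.24 in mice 1 to 4, and with the mutant in Cy3 0.16, 0.54, 0.18 and 0.24. Centring runs of 48 neighbouring spots reduced it to 0.13. The 19 members in neither list, among them Ppp3r2, Map3k8 and Ppp1r3c, had 1 positive and 5 negative calls and a median of -0.36. In both enzyme groups the order was the same. Medians were 0.52 for the 9 brain-enriched, 0.18 for the 21 ubiquitous and -0.46 for the 8 remaining phosphatases, and 0.37 for the 19 brain-enriched, 0.03 for the 21 ubiquitous and -0.31 for the 11 remaining kinases. The brain-enriched list is not uniform, since Ppp1r9a, Mapk8ip1 and Ppp3r1 in it were called negative. Further members of it, among them Mapk10 at -0.95, had negative mean ratios that did not pass.

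**Figure D3:**
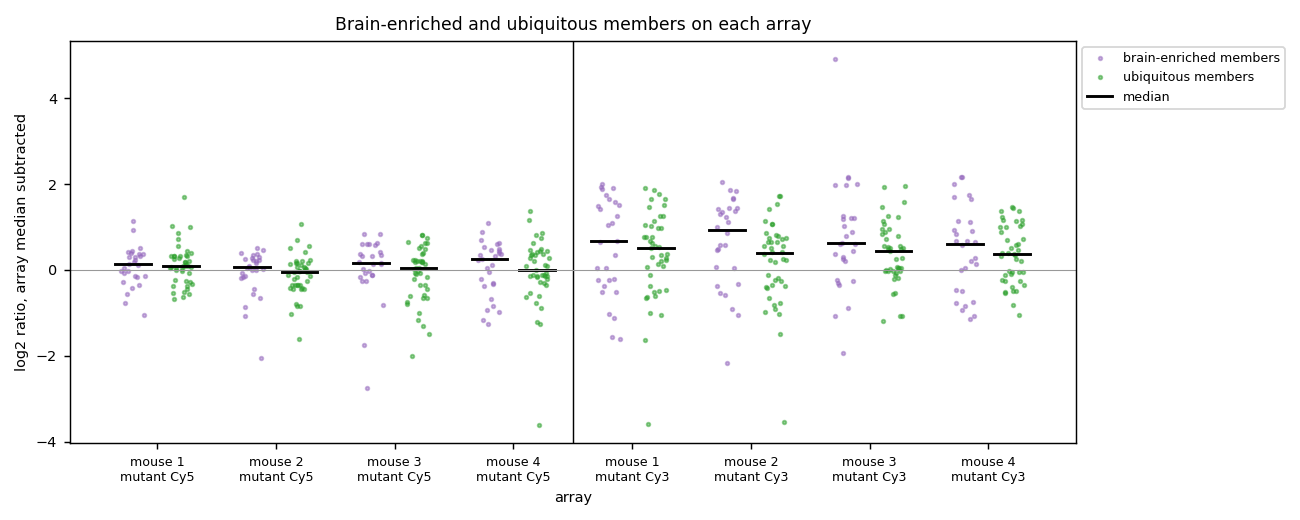
Log2 ratio of the 28 brain-enriched (purple) and 43 ubiquitous (green) members on each of the 8 arrays, with a black bar at each median. The brain-enriched median is the higher on every array, at 0.06 to 0.25 with the mutant in Cy5 and 0.61 to 0.93 with the mutant in Cy3, against -0.04 to 0.10 and 0.37 to 0.51 for the ubiquitous members.

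Markers of neurons, astrocytes and oligodendrocytes also had mostly positive ratios. Of 13 neuron markers measured 9 were positive and none negative, with a median of 0.82. Their medians per array ran from 0.10 to 1.59, and Syp, a synaptic vesicle protein, was at 1.13 ± 0.12 (SE, n = 4, adjusted p = 0.00755). Of 10 astrocyte markers 5 and of 7 oligodendrocyte markers 4 were positive, none negative, with medians of 0.48 and 0.60. Microglia markers had 1 positive and 3 negative calls of 6 (median -0.40), blood markers 1 and 3 of 5 (median -0.86) and choroid plexus markers 1 and 1 of 3 (median 0.11). The part of these cell types in the values of the kinase and phosphatase genes was not tested.

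Most calls in the swap component were negative. It passed in 13 of 87 members, 12 negative (13.8%) and 1 positive, against 7.9% of 8119 genes, 6.82% negative and 1.07% positive. Of the 12 negative members 10 were positive in the mean ratio. The 12 were Prkar1b, Ppp2r2c, Ppp3cb, Camk2b, Map2k1, Prkar1a, Ppp2cb and Ppp1cc together with Camkv, Mapk8ip2, Mapk9 and Prkag2, the last 4 chosen after their values were seen. They lay between -0.85 (Ppp3cb, adjusted p = 0.0297) and -0.56 (Mapk9, adjusted p = 0.0327). The positive one was Map3k20, a stress-activated kinase also chosen after its values were seen, at 0.58 ± 0.13 (SE, n = 4, adjusted p = 0.0485). Of its 2 probes 1 did not pass alone, at 0.49 (adjusted p = 0.0756). The other had no value for mouse 3 in Cy3 and was not tested alone, so the gene's value for mouse 3 mixes unlike sets of probes. Of the 28 brain-enriched members 27 had a swap component and 8 of them were negative (29.6%), against 3 of 42 ubiquitous ones (7.14%). The medians were -0.24 and -0.23 and differed by -0.02, with an SD of 0.15 over mice. When any of the 4 mice was dropped, or the deposited array medians were kept, no member was called by limma (0, with 21 to 26 and 23 at an unadjusted p under 0.05), and no other gene on the array either (0%). The 8 negative members named by the rule lay between -0.92 and -0.61 without a mouse and between -0.74 and -0.53 with the medians kept.

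Among the called members the dye orientations differed in size rather than in sign. The calls were made on the average of both orientations, so members with opposite signs tend to cancel and not be called. Prkaca, not called, averaged -0.40 with the mutant in Cy5 and 0.45 with the mutant in Cy3. For the 22 positive members the mean with the mutant in Cy5 was 0.08 to 0.79 (median 0.30), and with the mutant in Cy3 it was 0.33 to 2.03 (median 1.30). In 16 of them every Cy3 array lay above every Cy5 array. Prkci was the only positive member with the lower mean in Cy3. The 10 negative members had medians of -0.71 with the mutant in Cy5 and -0.89 with the mutant in Cy3, and only Map3k20 had all its Cy3 arrays below its Cy5 arrays. On the Cy3 arrays alone 28 of 88 members were called, where 31.7% of all genes were, and 25 of them were called in the mean ratio with the same sign. On the Cy5 arrays alone neither a member nor any other gene was called (0 by limma, with 20 members at an unadjusted p under 0.05). Not a single member passed in the swap component with one sign on all 8 arrays once the Cy3 arrays were turned. Over all named genes, as a description, arrays of opposite orientation correlated at r = 0.16 to 0.42 without any sign being turned, against 0.22 to 0.42 within the Cy5 and 0.43 to 0.68 within the Cy3 orientation. The dye orientation and the numerator of the ratios cannot be told apart in these values.

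**Figure D4:**
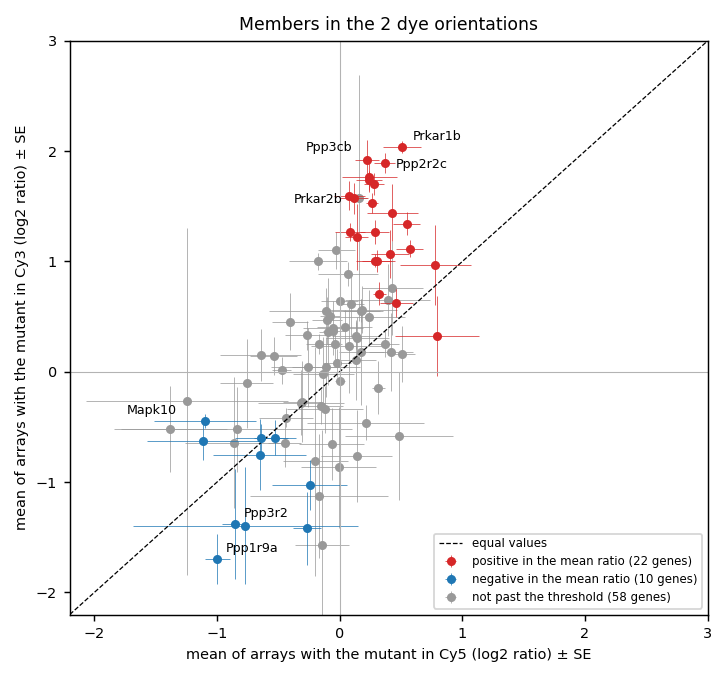
Mean log2 ratio of each member with the mutant in Cy5 (x axis, 4 arrays) and in Cy3 (y axis, 4 arrays), with SE bars, a dashed line of equal values, and red, blue and grey for positive, negative and no call in the mean ratio. Most of the 22 red points lie in the upper right well above the line, and the 10 blue points lie in the lower left on both sides of it.

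Several members were measured by more than 1 probe, and some probes of a gene disagreed. Of 35 members with at least 2 tested probes, 5 had probes called in opposite directions (14.3%), against 107 of 2543 genes on the whole array (4.21%). Ppp2r5d, a B56 subunit of PP2A chosen after its values were seen, had the widest gap, with probes at 1.23 ± 0.15 and -1.55 ± 0.20 (SE, n = 4). The negative probe had values on only 6 arrays, so mouse 1 and mouse 4 each rest on 1 array there. Prkacb, named by the rule, had the next widest gap of the 5. Its probe at spot 4697 had 0.27, 0.45, 0.51 and 0.60 with the mutant in Cy5, and 1.84, 1.58, 1.36 and 1.93 with the mutant in Cy3. The probe at spot 15602 had -0.53, -1.35, -0.48 and -1.95 with the mutant in Cy5, and -1.74, -3.42, -0.15 and -3.59 with the mutant in Cy3. Their mean ratios were 1.07 ± 0.13 (SE, n = 4, adjusted p = 0.00848) and -1.65 ± 0.43 (adjusted p = 0.0365), so the gene's average says little. The others were chosen by this disagreement after their values were seen. Map2k4, a JNK and p38 activating kinase, had probes at 1.02 and -0.94, and Camk2g, the gamma subunit of CaM kinase II, had probes at 0.67 and -1.52. Prkcb, a calcium-dependent protein kinase C, had 0.51 and -0.97. By contrast Ppp1cc, Ppp1r37, Ppp2cb and Prkar1a had at least 2 probes called positive and none called negative, and Ppp3r2 at least 2 called negative. Map4k4 also had 2 called positive, but its remaining probe lay at -1.09. The median spread between probes of the same member was 0.62 log2, with Prkce, which had only 1 tested probe, counted as 0.

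**Figure D5:**
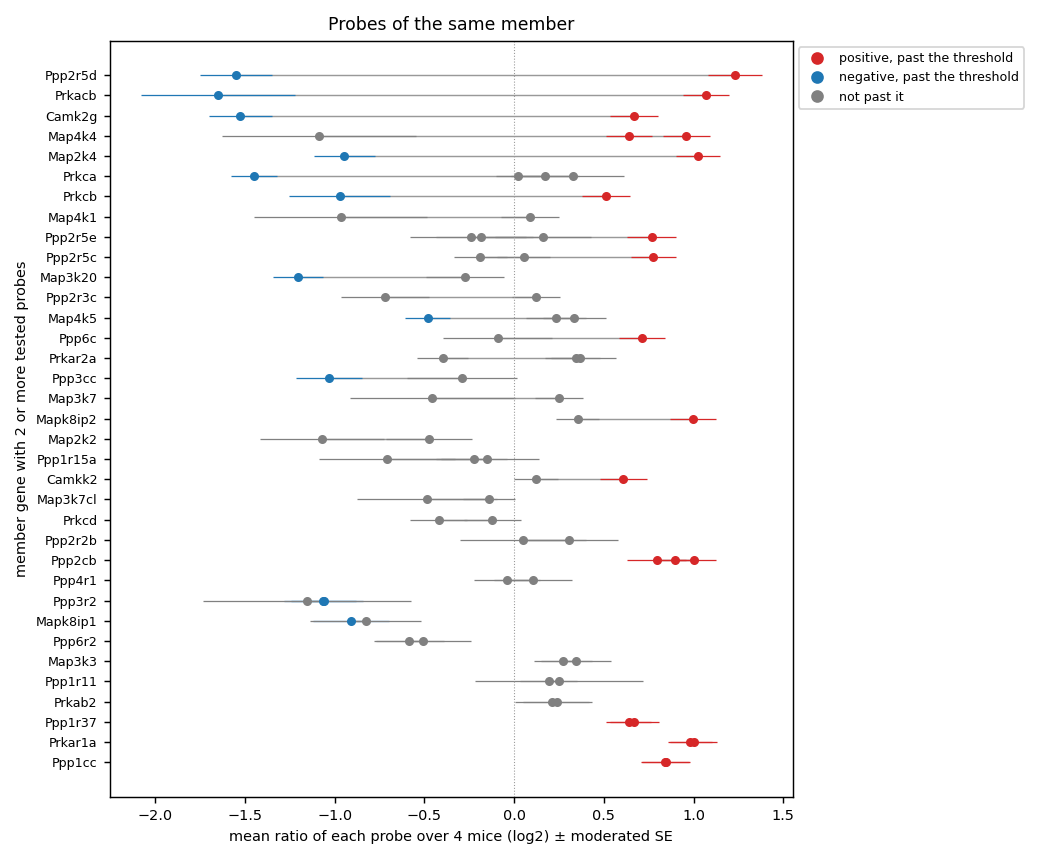
Mean ratio (log2, x axis) of each probe with its moderated SE over 4 mice, for the 35 members with at least 2 tested probes (y axis, ordered by spread); red and blue mark probes called positive and negative. The 5 members with a red and a blue point, such as Prkacb at 1.07 and -1.65, lie among the widest spreads.

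Genes of the same pathways that carry other symbols showed no shared direction. A-kinase anchoring proteins, which tether PKA, had 3 negative calls and no positive one among 7 (median -0.39), led by Akap4 of the sperm tail at -1.01 ± 0.20 (SE, n = 4, adjusted p = 0.0163). Inhibitors of PKA and calcineurin had 2 positive calls of 5, Pkig at 0.67 ± 0.14 (adjusted p = 0.0179) and Rcan2 at 0.41 ± 0.12 (adjusted p = 0.0461). Of 5 adenylyl cyclases, which make cyclic AMP, 2 were positive and 1 negative, with Adcy2 at 0.99 ± 0.12 and Adcy6 at -1.76 ± 0.42. Of 13 phosphodiesterases, which break it down, 1 was positive and 1 negative. Dual specificity phosphatases, which inactivate MAP kinases, had 2 positive calls and 1 negative of 14, with Dusp26 at 0.74 ± 0.18 and Dusp2 at -0.88 ± 0.12. None of 9 PP2C phosphatases was called. Of 5 ribosomal S6 and MAP kinase-activated kinases 1 was called, Rps6kb2 at 0.61 ± 0.15. Of 23 protein tyrosine phosphatases 6 were positive and 5 negative, led by Ptprn at 1.24 ± 0.12 and Ptprf at -1.07 ± 0.13.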

How the data were processed

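The deposited table holds log2 ratios, 1 column for each of 8 two-colour cDNA arrays. How the authors corrected background and normalized these deposited log2 values, and which channel they divided by, could not be read from the labels or the table used here. Each array carries an additive constant and a code for an empty channel (1 to 30 spots per array), which was treated as missing. Spot numbers were named through the platform annotation shifted by 11. At that shift the first and last probe of 2573 genes correlated at r = 0.22, against -0.02 to 0.07 at 20 other shifts. Array medians were subtracted, probes of a gene averaged, and the 2 arrays of a mouse combined. limma 3.58.1 in R 4.3.3 tested the 4 mouse values against 0 with Benjamini-Hochberg adjustment over all genes, after a check on simulated data. The number of arrays limits the precision. Alternatives left the medians in, left out weak spots (a ratio of whole numbers up to 10, within 0.001 log2), centred runs of spots, used probes, unshifted names, 1 dye orientation or 3 mice.

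The members and gene lists were chosen with earlier results of these data known. Genes named are up to 10 per direction with the largest mean ratio among called members whose 8 arrays share a sign, the largest of each family and the catalytic and calcineurin subunits. Of other lists up to 2 are named. Exceptions are stated. Cross-hybridisation between related genes was not tested.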

Additional observations from a re-analysis of the deposited data

Results flagged for a closer look

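Of 67 sets of 4 mouse values of the named members, 4 had a mouse far from the other 3 by Dixon's test, and chance alone gives about 1 such set in 20. The mean ratio of Ppp4r2 was 0.35 in mouse 2, below the other mice, with a gap of 0.85 of the range. The swap component of Ppp1r37 was -0.0422 in mouse 3, nearest to 0 of the 4, with a gap of 0.85. That of Ppp1r3c was 0.23 in mouse 2, above the others, also with a gap of 0.85. Prkaca had a swap component of -0.18 in mouse 4, the least negative, with a gap of 0.86.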

How the results depend on the processing

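Of the alternatives to the mean ratio, probe by probe calls gave 54 of the 136 tested member probes, 38 positive and 16 negative. Of all probes 30.2% were called. Arrays with the mutant in Cy5 alone gave 0, as for all genes on the array, and leaving out a mouse gave 15 to 22 against 32, with 13.8 to 20.4% of all genes called against 29.1%. The 13 swap calls became 0 with the deposited medians kept and 0 without any 1 of the mice, settings in which 0 of all genes passed. They became 5 with names at the unshifted spot number, where 6.09% of all genes passed. Unshifted names also changed the phosphatase minus kinase difference to -0.14 in the mean ratio and 0.28 in the swap component, and the brain-enriched minus ubiquitous difference to 0.0742 and -0.18. Probe by probe, the phosphatase minus kinase difference was -0.10 in the mean ratio. Runs of 48 spots centred gave -0.11 for phosphatase minus kinase in the swap component and 0.13 for brain-enriched minus ubiquitous in the mean ratio. Without a mouse these mean-ratio differences ran from 0.02 to 0.12 and from 0.25 to 0.31. With unshifted names 15 of 34 named members had the other sign in the mean ratio. The 11 called with shifted or unshifted names were Mapk6 (-0.45), Mapk7 (0.0697), Mapk8 (-0.98), Mapk8ip1 (0.12), Ppp1r1b (-0.14), Ppp2ca (-0.68), Ppp3cb (-0.47), Ppp3r1 (0.45), Ppp4r2 (-0.0904), Ppp5c (0.52) and Prkar1a (-0.44). In the swap component 15 of 30 had the other sign, among them the called members Camk2b (0.16), Ppp1cc (0.33), Ppp3cb (0.27), Prkar1a (0.27) and Prkar1b (0.0922). Those names belong to other spots, which is how that alternative is built. Ppp3r1 was at 0.0214 with runs of 48 spots centred, and Prkacb at 1.07 by its probe with the smallest p. The cause of the other changes was not tested. Signal over background is not part of the deposited ratios, and 74 of 1081 probe values of the members were ratios of whole numbers up to 10, within 0.001 log2.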
